A study of Homo sapiens with 6 samples.

Results

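Chromosome 8 held 423 of the 32760 islands called for NFATc2 in THP-1 cells, which is 1.29% of the list. These islands were selected by chromosome alone, as all those that the list places on chromosome 8. They were then divided at 14.5 Mb, counted from the end of the short arm, into 242 islands before this boundary and 181 after it, and no island lay across it. The boundary was set with the island counts known, at the edge of a dense stretch, so the number of islands on each side is given as a description and without a test. The 242 islands are called those of the short-arm end and the 181 those of the rest of the chromosome.

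The libraries were 3 NFATc2 IP and 3 Input DNA. THP-1 is a human line of monocytic acute myeloid leukaemia with an MLL-AF9 fusion, and the cells were untreated. Cells were fixed in 1% formaldehyde for 10 min, and Input DNA was the sheared chromatin before precipitation. All libraries came from 1 cell line in 1 condition. The authors called islands on the pooled libraries, so there is no value per replicate and none of the differences below could be set against the spread between replicates.

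NFATc2 is a transcription factor of the calcineurin pathway. Calcium influx activates the phosphatase calcineurin, which removes phosphates from NFAT proteins in the cytoplasm and lets them enter the nucleus and bind DNA. Chromosome 8 carries MYC on its long arm, the proto-oncogene whose product drives growth, ribosome synthesis and cell cycle entry, and which many leukaemias express at a high level. The end of the short arm is known for clusters of defensin genes, which encode antimicrobial peptides of neutrophils and epithelia. An island is a stretch of 200 bp windows that together, not necessarily each alone, have more IP reads than scaled input reads predict. It is a broader call than the sharp summit often shown for a transcription factor, and the study took islands above a fold threshold as its peaks.

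The reads behind each island were obtained from its fold and p, which together fix the IP reads and the reads expected from input. Input reads are the expected reads divided by a factor, fitted so that input reads came out nearest to whole numbers. On chromosome 8 all 423 islands gave whole input reads, where the median island had 141 IP and 182 input reads, with at least 69 IP reads in any island. Enrichment is given as the caller's log2 fold change (log2 FC), the log2 ratio of IP reads to those expected from input. The expected number is 0.5618 times the input reads. This is the fitted factor, which stands for the ratio of depths of the pooled libraries and was not taken from them. Intervals given for single islands are exact 95% Clopper-Pearson intervals of the share of IP reads on the log2 scale, and they cover counting error in pooled reads only. Coordinates are those of hg19, counted from 1. No gene model in hg19 was used here, so islands are given by position and whether they lie in exons, introns or UTRs was not analysed here.

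Most chromosome 8 islands lay at the short-arm end. Its 14.5 Mb are 9.93% of the chromosome up to its last island, and held 57.2% of the islands. The density there was 16.7 islands per Mb, against 1.38 per Mb over the following 131.5 Mb, a ratio of 12.1. The ratio fell to 7.50 among islands with an FDR below 0.001, and to 4.61 when stretches of 1 Mb or more without an island were left out of both lengths. Islands covered 10.8% of the short-arm end and 0.641% of the rest, a ratio of 16.8. The covered share thus differed more than the number, since islands were also wider at the short-arm end, with a median of 5200 bp (quartiles 4000 and 7200) against 4600 bp (3800 and 5400). Of the 14 islands of at least 15 kb on the chromosome, 13 were at the short-arm end. The median distance between neighbouring islands was 23.8 kb in the short-arm end and 383.9 kb in the rest.

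**Figure D1:**
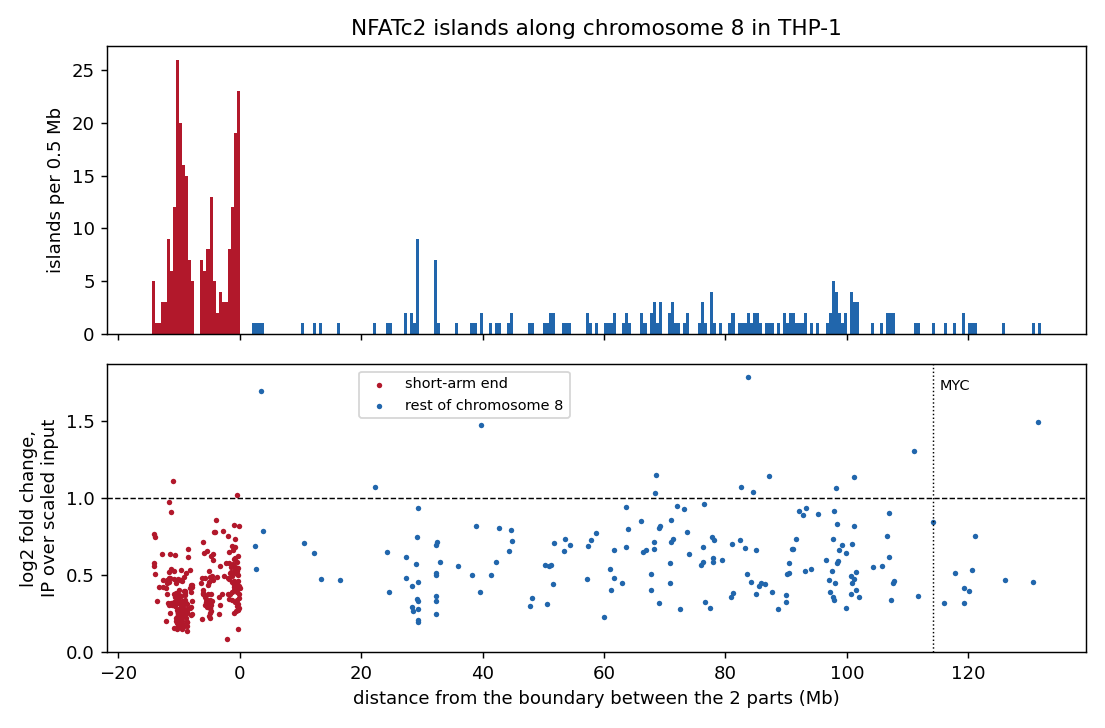
Upper panel, number of NFATc2 islands per 0.5 Mb of chromosome 8; lower panel, log2 FC of each island, both against distance in Mb from the boundary at 14.5 Mb (negative towards the end of the short arm). The 242 islands of the short-arm end (red) form dense stretches that stop at the boundary, the 181 islands of the rest (blue) are scattered, the dashed line is the peak threshold of 1, and the dotted line is the approximate position of MYC.

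The edge was abrupt on this scale. From 13.5 to 14 Mb there were 19 islands and from 14 to 14.5 Mb there were 23, while the next island was not met for 2.48 Mb. The last island before the boundary ran from 14462801 to 14467000 and had a log2 FC of 0.42 (interval 0.07 to 0.76) from 126 IP and 168 input reads. Before it, an island from 14431401 to 14435000 had 0.35 (-0.02 to 0.72). Beyond the boundary the first island ran from 16947801 to 16952600, with a log2 FC of 0.69 (0.35 to 1.02) from 141 IP and 156 input reads, and the second from 17213801 to 17217800, with 0.54 (0.17 to 0.91). The intervals of these islands overlap, so a difference in enrichment between these single islands was not detectable at this depth. The median log2 FC was 0.42 over the 23 islands from 14 to 14.5 Mb. Over the 4 islands from 16947801 to 18256800 it was 0.73. Moving the boundary to 14 Mb or to 15 Mb gave density ratios of 10.1 and 11.7. The move to 15 Mb shifted no island and changed only the lengths of both parts.

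The short-arm end was itself made of 2 blocks, parted by 1.52 Mb without an island. The distal block ran from 318201 to 6622200 with 129 islands, and the proximal block from 8144001 to 14467000 with 113. Density was similar in both, at 20.5 and 17.9 islands per Mb, but the medians of fold and input differed. Distal islands had a median log2 FC of 0.31 (quartiles 0.24 and 0.44) at 49.5 input reads per kb. Proximal islands had 0.45 (0.34 and 0.55) at 39.8 input reads per kb. Of the islands of at least 15 kb, 11 lay in the distal block and 2 in the proximal block.

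The contrast was sharper between the densest stretches of the blocks, which were picked after the profile was seen. Between 4 and 6 Mb there were 77 islands, covering 33.9% of the sequence, with a median log2 FC of 0.26 at 52.8 input reads per kb. In the 2 Mb before the boundary there were 62 islands, covering 16.3%, with a median log2 FC of 0.49 at 39.5 input reads per kb. A high density of islands thus went with high input and weak enrichment in the distal stretch, and with lower input and stronger enrichment in the proximal one. The 2.5 Mb next to the chromosome end held 13 islands, or 5.2 per Mb, with a median log2 FC of 0.47. Its first island ran from 318201 to 323200, with a log2 FC of 0.58 (0.23 to 0.92).

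The widest islands of the short-arm end had folds below its median of 0.38. The widest, of 30000 bp from 12413601 to 12443600 in the proximal block, had 1147 IP reads and 1928 input reads and a log2 FC of 0.08, the lowest on chromosome 8. Its interval, -0.02 to 0.19, includes 0. An island of 26000 bp from 4786801 to 4812800 had 0.16 (0.05 to 0.28), and one of 20400 bp from 5527801 to 5548200 had 0.33 (0.20 to 0.47). The latter was slightly above the median of the distal block, 0.31. With 733 to 1147 IP reads each, these broad islands entered the list at a small excess of IP.

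Enrichment was stronger in the sparse rest of the chromosome. The median log2 FC was 0.58 (quartiles 0.44 and 0.73) in the rest and 0.38 (0.28 and 0.50) at the short-arm end, a difference of 0.20. Of the 181 islands of the rest, 113 (62.4%) lay above the upper quartile of the short-arm end. Of the 242 islands of the short-arm end, 151 (62.4%) lay below the lower quartile of the rest. Over the other autosomes together the median was 0.39 (0.29 and 0.53), close to that of the short-arm end. No test is given, because the fold decided which islands entered the list in both parts and neighbouring islands are not independent.

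**Figure D2:**
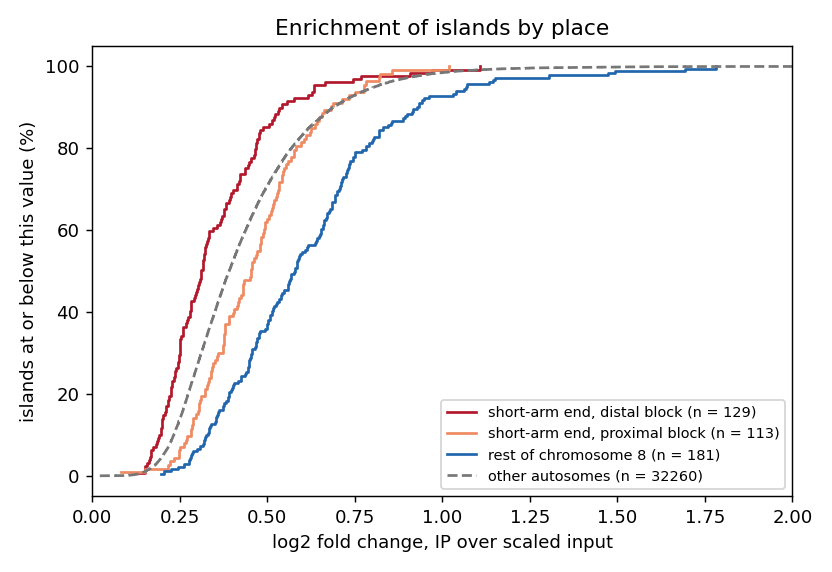
Cumulative share of islands in percent (y axis) at or below each log2 FC (x axis, shown up to 2) for both blocks of the short-arm end, the rest of chromosome 8 and the other autosomes. Islands of the distal block are the weakest, with a median of 0.31, those of the proximal block have 0.45, and those of the rest of the chromosome 0.58, while the other autosomes run between the blocks at 0.39.

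Both kinds of library were less dense in islands of the rest. The median was 33.7 input reads per kb (quartiles 30.7 and 38.1) against 43.5 (37.7 and 50.0) at the short-arm end, 1.29 times as many. For IP reads the medians were 28.6 and 32.5 per kb, a ratio of 1.13. The gap in input was thus the wider one, and 159 of the 181 islands of the rest (87.8%) had fewer input reads per kb than the median island of the short-arm end. Among islands of like enrichment, with a log2 FC between 0.3 and 0.5, input was again lower in the rest, at 36.25 reads per kb in 55 islands against 42.98 in 104. Between 0.5 and 0.7 the medians were 33.2 in 59 islands and 37.3 in 47. Input was thus lower in the sparser of both parts. Over shorter stretches of the short-arm end it mostly rose with density, but not always. The 2.5 Mb next to the chromosome end had 5.2 islands per Mb at a median of 37.0 input reads per kb. Between 8 and 10 Mb there were 17 per Mb at 41.1, and between 4 and 6 Mb 38.5 per Mb at 52.8. Out of step were the stretch between 6 and 7 Mb, with 12 per Mb at 44.4, and the 2 Mb before the boundary, with 31 per Mb at 39.5. The former includes sequence without an island after 6622200. The part of input depth in the result was not tested. More DNA copies and other reasons for deeper input cannot be told apart in this list, as input is known only inside called islands.

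**Figure D3:**
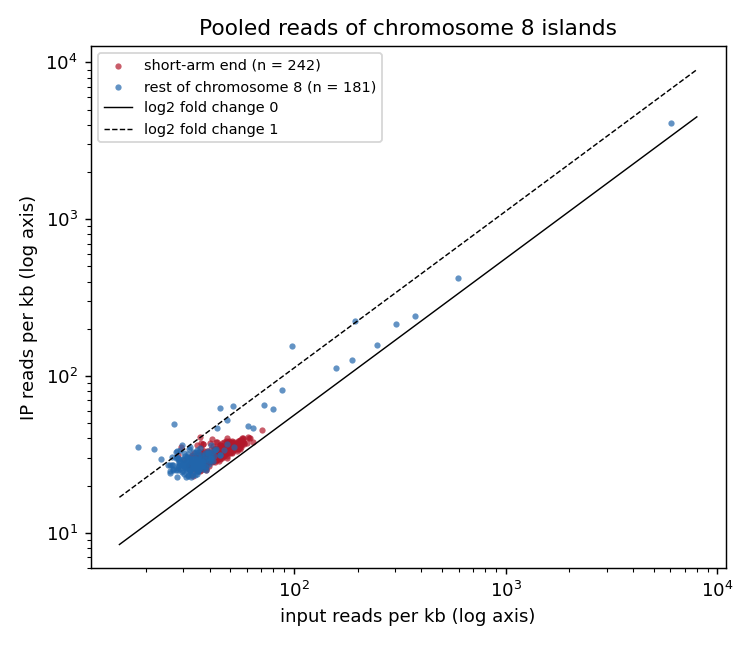
IP reads per kb (y axis, log) against input reads per kb (x axis, log) for each chromosome 8 island, pooled over replicates, with lines at a log2 FC of 0 (solid) and 1 (dashed). Islands of the short-arm end (red) sit to the right of most islands of the rest (blue), with medians of 43.5 and 33.7 input reads per kb, and a few islands of the rest reach far higher values in both.

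The stronger folds of the rest also gave smaller FDR values from fewer reads. An FDR below 0.001 was met by 133 islands of the rest (73.5%) and by 110 of the short-arm end (45.5%), beside 46.9% of all islands in the list. The lower bound of the interval was above 0 in 165 islands of the rest (91.2%) and 185 of the short-arm end (76.4%), where 75.2% of the list passed.

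By the threshold the study used for peaks, a log2 FC above 1, chromosome 8 had 15 peaks, or 3.55% of its islands, where 1.58% of all islands in the list passed. The study then dropped peaks in blacklisted regions. That step was not repeated here, so whether any of the 15 was dropped was not determined. The short-arm end had 2 peaks among 242 islands (0.826%) and the rest had 13 among 181 (7.18%). Most islands thus lay at the short-arm end and most peaks did not. Per Mb the short-arm end had 0.138 peaks and the rest 0.0988. Chromosome 8 as a whole had 0.103 peaks per Mb and the other autosomes 0.180. The threshold cut through a continuous range: the lowest peaks had 1.02 and 1.03, and the highest islands below it 0.97 and 0.96.

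The strongest peak of the chromosome ran from 98268801 to 98271200 on the long arm. It had 85 IP reads against 44 input reads in 2400 bp and a log2 FC of 1.78 (1.24 to 2.34), which ranked 13 among all islands of the list. Its input, 18.3 reads per kb, was 0.531 times the median of the 10 nearest islands, while its IP reads per kb were 1.23 times theirs. The next strongest, from 17968001 to 17969400 on the short arm, had 69 IP and 38 input reads and a log2 FC of 1.69 (1.10 to 2.30). These were the 2 islands above 1.5 on chromosome 8, where 0.177% of the list passed that threshold. Both rest on few input reads, so that their intervals are more than 1 log2 unit wide.

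The last island of the chromosome was a peak of a different kind. From 146015801 to 146018000 it held 340 IP reads and 215 input reads, the most of any peak on chromosome 8, with a log2 FC of 1.49 (1.24 to 1.75). Input there was 97.7 reads per kb, 2.82 times that of its 10 nearest islands, and IP was 5.63 times theirs. All but the nearest of those lay before a stretch of 4.68 Mb without an island. The nearest itself had 80 input reads per kb. Together with the pair above, the last island made up the 3 peaks whose lower bound was above 1. A peak from 54285801 to 54288400 just missed this, with 1.47 (0.98 to 1.98) from 89 IP and 57 input reads.

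Among the remaining peaks 3 were short and dense in reads. A peak of 800 bp from 99057201 to 99058000 had 179 IP and 155 input reads and a log2 FC of 1.04 (0.72 to 1.36), with input 5.61 times that of its neighbours. Peaks of 1200 bp from 101733801 to 101735000 and from 125550401 to 125551600 had 1.14 (0.64 to 1.65) and 1.31 (0.78 to 1.84), with input 1.44 and 1.33 times that of theirs. In these 3 and in the last island both libraries stood above the median of the 10 nearest islands. In the other 11 peaks input was below the level of the 10 nearest islands. IP was above it in all 15, and a high fold was what these islands were picked for.

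The other 8 peaks lay between 1.02 and 1.15, close to the threshold. Those of the short-arm end were from 3515401 to 3518000 in the distal block, with 1.11 (0.65 to 1.57), and from 14058401 to 14061200 in the proximal block, with 1.02 (0.62 to 1.42). The third in fold there missed the threshold, with 0.97 (0.64 to 1.304) from 2870801 to 2876000. In the rest, a pair 208.4 kb apart ran from 82884801 to 82888600, with 1.03 (0.63 to 1.43), and from 83097001 to 83100600, with 1.15 (0.73 to 1.58). The others started at 36809601, with 1.07 (0.63 to 1.51), at 97064401, with 1.07 (0.65 to 1.49), at 112729601, with 1.06 (0.63 to 1.49), and at 115728801, with 1.13 (0.73 to 1.54). The intervals of these 8 all include 1, so whether any exceeds the threshold was not detectable at this depth.

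**Figure D4:**
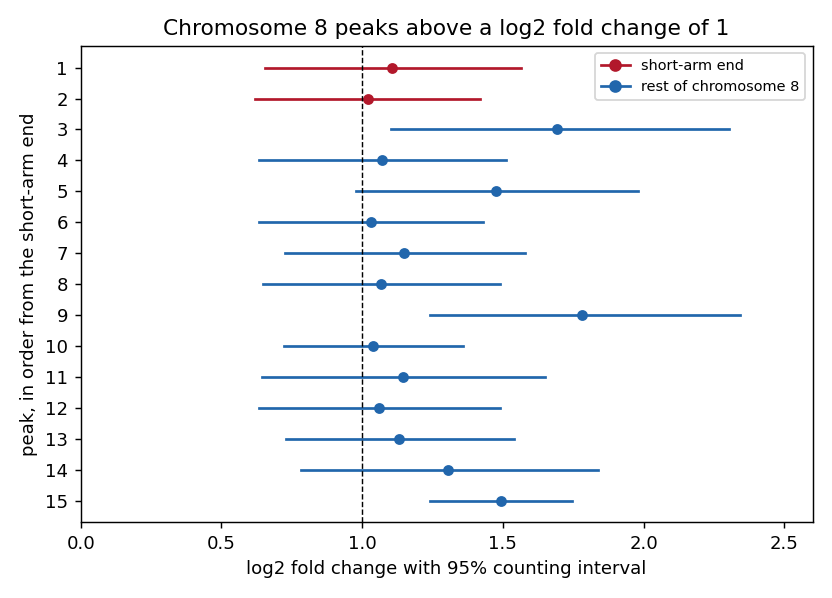
Values of log2 FC (points, x axis) with 95% counting intervals (lines) for the 15 chromosome 8 peaks, in order from the short-arm end (y axis), red for the short-arm end and blue for the rest. The dashed line is the threshold of 1, and 3 peaks, with 1.69, 1.78 and 1.49, have intervals that lie wholly above it.

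At MYC, 1 island lay close by and it was not a peak. MYC is at about 128.75 Mb, and an island of 4000 bp ran from 128754601 to 128758600, so that its start was 4.6 kb further along the chromosome. It held 108 IP reads and 107 input reads, with a log2 FC of 0.85 (0.45 to 1.24) and an FDR below 0.001. The position of MYC is a rounded one and the gene spans 7518 bp in RefSeq (GRCh38), so whether the island overlaps the gene or lies beside it was not determined. In gene order MYC stands between the non-coding RNA genes CASC11 and PVT1.

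The island at MYC stood alone. No other island was found within 1 Mb of the gene position. The island before it ended 2.58 Mb away and the next one began 1.79 Mb away. Its fold was above that of 85.1% of the islands of the rest, 26 of which were higher, and its input of 26.75 reads per kb was 0.753 times the median of its 10 nearest islands. Its IP reads per kb were 0.970 times theirs. The island before it, from 126166001 to 126171800, had a log2 FC of 0.36 (0.04 to 0.68). On the other side, islands from 130550001 to 130555000 and from 132375201 to 132380000 had 0.32 (-0.01 to 0.65) and 0.51 (0.18 to 0.85). The nearest peak was the one of 1200 bp that starts at 125550401, 3.20 Mb from the MYC position, followed on its far side by an island from 122311601 to 122316800 with 0.46 (0.12 to 0.79).

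Over the rest of the chromosome islands came in small groups. Split wherever 1 Mb or more held no island, the rest fell into 37 groups, of which 13 were single islands and 7 had at least 10. The group with most islands had 27, from 111135401 to 116450000. Between 80 and 120 Mb there were 93 islands, or 2.33 per Mb, with a median log2 FC of 0.60 and 8 of the 13 peaks of the rest. From 120 Mb to the end there were 20 islands, or 0.769 per Mb. The longest stretch without an island was 6.73 Mb, from the end of an island at 18256800, with 0.78 (0.40 to 1.17), to the start of one at 24988601, with 0.71 (0.34 to 1.07). Another of 5.86 Mb followed on the short arm, from 30949400 to 36809601.

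Some of the islands between 43 and 47 Mb stood apart by their reads. Of the 8 islands with more than 100 input reads per kb, none was at the short-arm end, 7 lay between 43 and 47 Mb and 1 was the peak of 800 bp. The 7 flanked a stretch of 3.00 Mb without an island, and the centromeres of human chromosomes are known for long arrays of satellite repeats. An island of 6200 bp from 43092001 to 43098200 held 25343 IP reads and 37580 input reads, at 6061 input reads per kb, with a log2 FC of 0.26 (0.24 to 0.29). The widest island of the rest, 18600 bp from 46839001 to 46857600, had 7810 IP and 11056 input reads and a log2 FC of 0.33 (0.29 to 0.37). The next widest, 14200 bp from 43818801 to 43833000, had 0.21 (0.14 to 0.27). That from 43768201 to 43777000, of 8800 bp, had 48.2 input reads per kb and 0.45 (0.24 to 0.66).

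These few islands carried much of the read total. The 8 together held 63.3% of the IP reads in islands of the rest, although the folds of the 7 were between 0.20 and 0.34. From summed reads, the log2 FC of the rest was 0.38 (0.37 to 0.40) with them and 0.59 without them. At the short-arm end it was 0.34 (0.32 to 0.35). The median over islands of the rest was 0.58 with the 8 and 0.59 without them. Summed input was 100.5 reads per kb of island in the rest with them and 34.2 without them, beside 46.7 at the short-arm end, so that the order of both parts by summed input turns on these 8 islands.

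Set among the 22 autosomes, chromosome 8 was poor in islands apart from its short-arm end. It had 2.90 islands per Mb, where the other autosomes had a median of 9.71 and ran from 0.584 to 30.6, and 3 had fewer. Beyond 14.5 Mb, 2 autosomes had fewer islands per Mb than its 1.38. Those were chromosomes 18 and 22, with 0.853 and 0.851. Within the first 14.5 Mb, by contrast, 3 autosomes had more islands than its 242, namely chromosome 9 with 576, chromosome 5 with 332 and chromosome 7 with 310, and the median of the other 21 was 21. The first stretch of chromosomes 13, 14, 15 and 22 held no island. These are acrocentric chromosomes whose short arms are largely unsequenced in hg19, and without them the median of the other 17 was 41. The share of its islands that lay in the first stretch was 57.2% on chromosome 8 and 56.4% on chromosome 9. Since the boundary was set on chromosome 8, these counts and shares are no ranking of the autosomes.

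**Figure D5:**
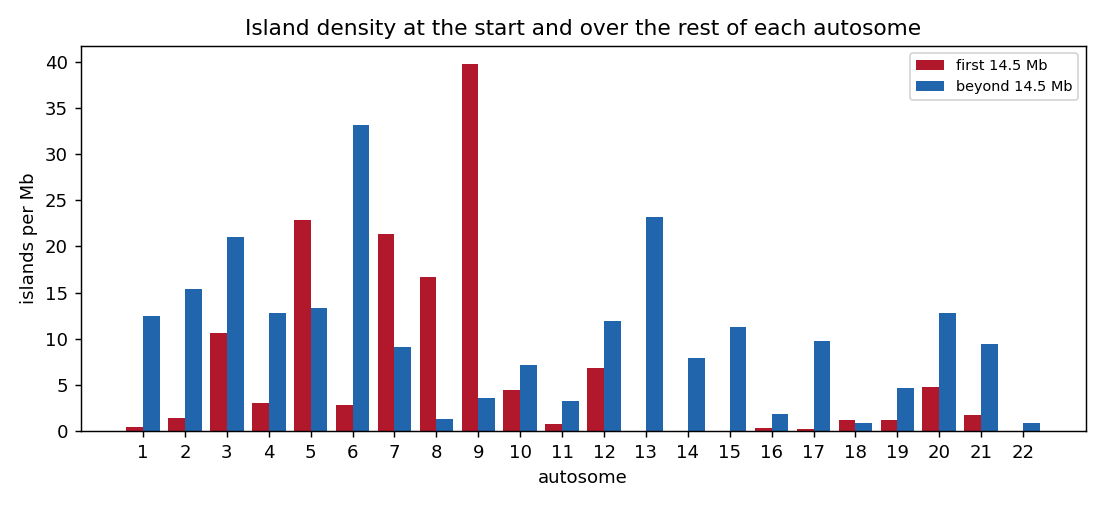
Islands per Mb (y axis) in the first 14.5 Mb (red) and beyond it (blue) for each autosome (x axis). Chromosome 8 has 16.7 and 1.38 islands per Mb, and chromosomes 5, 7, 9 and 18 also have more at their start than beyond it, while most autosomes have fewer.

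The dense starts of these chromosomes had similar islands. The median log2 FC was 0.38 in the first 14.5 Mb of chromosome 8, 0.37 on chromosome 7, 0.35 on chromosome 5 and 0.32 on chromosome 9. Input was 43.5 reads per kb on both chromosomes 8 and 7, 45.3 on chromosome 5 and 47.3 on chromosome 9. Beyond 14.5 Mb chromosome 5 had 13.3 islands per Mb, chromosome 7 had 9.16, chromosome 9 had 3.56 and chromosome 8 had 1.38. A dense start before a sparse rest was thus shared with chromosome 9. Its first 14.5 Mb held 39.7 islands per Mb, beside 16.7 on chromosome 8.

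Across all autosomes, sparse chromosomes had islands of higher fold. Islands per Mb and median log2 FC had a Spearman rho of -0.67 and a Pearson r of -0.62 over 22 autosomes, which share all libraries and are given here as a description. With median input reads per kb the values were 0.51 and 0.54. The median fold of chromosome 8, 0.46, was exceeded on 6 autosomes, and its input of 38.5 reads per kb was undercut on 4. Bins of 5 Mb at the short-arm end held 77 to 86 islands, and 27 bins of other autosomes with as many had a median log2 FC of 0.42 at 39.7 input reads per kb, beside 0.38 at 43.5. Bins of the rest held 1 to 17 islands, and 177 such bins elsewhere had 0.53 at 36.5 input reads per kb, beside 0.58 at 33.7. In these sparse bins of other autosomes 10.1% of islands were peaks, against 7.18% in the rest of chromosome 8. In the dense bins of other autosomes 1.63% were peaks, against 0.826% at the short-arm end, which had only 2.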

How the data were processed

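Tools listed by the submitters, without their roles, are Trimmomatic (version 0.36.5), BWA (version 0.7.17.1), SAMtools (version 1.3.1), SICER (version 0.0.52) and ChIPseeker (version 1.18.0), with hg19 as the build. Islands were called with epic2, per the paper. The deposited list has 32760 islands at FDR below 0.05, from 3 NFATc2 IP and 3 Input DNA libraries pooled. It gives the authors' score, the deposited log2 fold change, and the deposited −log10 p and −log10 FDR. No blacklist filter was applied here, and depth per library is unknown.

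Reads per island were solved from fold and p with a Poisson tail and a fitted scaling factor. Input reads were whole within 0.02 reads in 32750 islands. On 2000 simulated islands built with the same factor, 100% were recovered exactly, which checks the inversion and not the factor. Islands were assigned by midpoint, and lengths run to the last island of a chromosome. Named islands are all chromosome 8 peaks, the 3 highest in fold and 3 widest in each part, and those next to the boundary, chromosome ends, MYC and the longest empty stretch. Members, boundary and lists were chosen with earlier results of these data known. Values are descriptions, and no test was made. Alternatives were FDR of 0.01 and 0.001, merging within 1 kb, boundaries at 14 and 15 Mb, summed reads, and fold thresholds. Leaving out islands above 100 input reads per kb was chosen after seeing the data. GRCh38 coordinates were not used. Calculations were run in Python 3.11.15 with scipy 1.17.1 and numpy 2.4.6, tables in pandas 2.3.3 and plots in matplotlib 3.10.9.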

Additional observations from a re-analysis of the deposited data

How the results depend on the processing

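Of 48 alternatives computed for the chromosome 8 values, 20 moved the value past a binomial interval that takes islands as independent, or moved a count of peaks or a distance. The short-arm end was denser than the rest under each alternative for density, by 4.61 to 11.7 times. The lowest ratio came from leaving out empty stretches of 1 Mb or more, which raised the density of the rest to 4.04 islands per Mb. The highest came from the boundary at 15 Mb, which changed only the lengths and shifted no island. At FDR below 0.01 the short-arm end had 12.6 islands per Mb, 8.08% covered and a median log2 fold change of 0.44. At FDR below 0.001 it had 7.59 islands per Mb, 4.85% covered and 0.51, and the rest had 1.01 islands per Mb, 0.467% covered and 0.67. A stricter FDR keeps fewer islands by construction. From summed reads the log2 fold change was 0.34 at the short-arm end, with and without islands above 100 input reads per kb, and 0.38 in the rest, and input was 46.7 and 100.5 reads per kb. For the rest this rests on those islands, since its input was 34.2 without them. Thus the order of the 2 parts by input turns with summed reads and turns back without those islands. Input of the rest was 36.25 in the band of log2 fold change from 0.3 to 0.5. The 15 peaks fell to 2 above 1.5 and to 3 where the lower bound had to pass 1. The distance from MYC was 3198 kb to the nearest peak. No paired analysis was possible because values per replicate are not in the pooled list, and leaving out single replicates was not possible either. Depth limits single folds, as the median interval of a chromosome 8 island was 0.66 wide on the log2 scale.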
